A study of Zea mays with 6 samples.

Results

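The genes described here are the 9 structural genes that carry the maize anthocyanin and flavonoid pathway from chalcone synthase to the vacuole, out of 39283 genes in the table. They were taken by identifier and kept in the order of the pathway steps: C2, WHP1, CHI1, F3H, PR1, A1, A2, BZ1 and BZ2. RNA-seq was done on shoots (all tissue above ground) of 7-day-old greenhouse seedlings of the inbred line B73, cut and kept for 30 min in 1% DMSO alone (3 samples) or in 1% DMSO with the auxin indole-3-acetic acid (IAA, 3 samples). Each sample held 3 plants. The labels give the IAA dose as 100 mM and the methods of the study as 100 μM. B73 is a single inbred genotype, both groups were cut and bathed in DMSO, and no uncut or unbathed seedlings were analysed here.

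Anthocyanins are the red and purple pigments of maize shoots, aleurone and anthers, and several of their genes were defined through changed colour of the kernel. Chalcone synthase joins a phenylpropanoid unit to malonyl units, an isomerase closes the ring, hydroxylases decorate it, and a reductase and a dioxygenase turn the product into a coloured anthocyanidin, which is glucosylated and moved into the vacuole. Maize MYB proteins (C1, PL1) together with bHLH proteins (R1, B1) switch these genes on. The same early enzymes make flavonols, which in Arabidopsis are known to restrain the transport of auxin between cells.

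Transcript levels are given in FPKM, which is scaled to transcript length and library size, so levels can be compared between genes. For each treatment the table holds 1 value per gene, made by the authors over the 3 replicates. The spread between replicates cannot be computed from these FPKM values, the authors' own test of the treatment was not used, and each ratio below is a description of a pair of pooled values. In bulk tissue, fewer expressing cells and less RNA per cell cannot be told apart.

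Of the 9 genes, 7 had a higher value after IAA and 2 a lower one, and the differences were small. Only BZ2, the glutathione S-transferase needed to bring the pigment into the vacuole, differed by at least 1.5-fold upward among the 8 genes whose mean FPKM reached 1. In the whole table, 4.13% of the 22524 genes with such a mean were at least 1.5-fold higher and 5.22% at least 1.5-fold lower. Among the 8 genes 7 were higher and 1 was lower, whereas of all genes whose mean reached 1 FPKM, 44.5% were higher after IAA. The median log2 ratio (IAA over DMSO) was 0.20 over the 9 genes and -0.04 over all genes of that level. Because the genes belong to 1 pathway and are not independent samples, these counts were not tested.

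**Figure D1:**
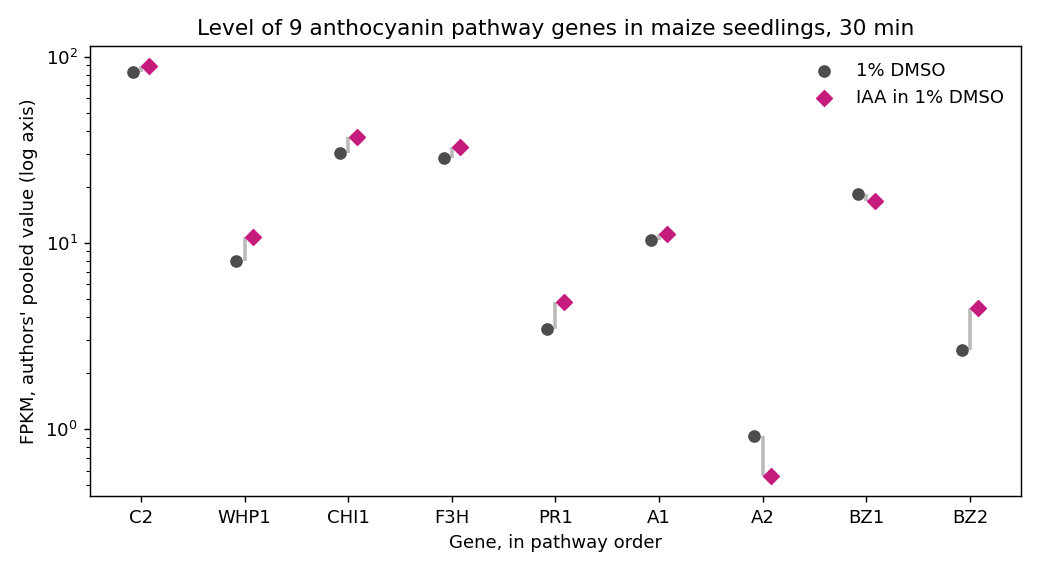
Level of each of the 9 pathway genes (FPKM, log axis, the authors' pooled value per treatment) in 1% DMSO (grey circles) and in IAA with 1% DMSO (magenta diamonds), in pathway order. No error bars can be drawn from pooled values. C2 lies at the top with 82.4 and 88.6, A2 at the bottom with 0.915 and 0.562, and the order of the genes is the same in both treatments.

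Chalcone synthase, which makes the first flavonoid of the pathway, is encoded in maize by a pair of genes. C2 (GRMZM2G422750), at chr4:192758391-192761788 in B73v3 coordinates, had an FPKM of 82.4 in DMSO alone and 88.6 with IAA. This was the highest level of the 9 genes, above 95.2% of all genes in the control. Its log2 ratio was 0.10, within the quartiles (-0.21 to 0.11) of the 5589 genes with a mean FPKM from 20 to 100. The second copy, WHP1 (GRMZM2G151227), at chr2:224558005-224561990, had 7.98 in the control and 10.8 after IAA. Its log2 ratio of 0.44 lay above the upper quartile of genes with a mean FPKM from 5 to 20 (0.13) and under their 95th percentile (0.48). WHP1 was the copy with the larger relative difference, and C2 the copy with most of the transcript. C2 made up 91.2% of the summed C2 and WHP1 FPKM in the control and 89.1% after IAA. The sum was 90.4 and 99.4 FPKM, respectively. Both encode chalcone synthase, so reads of like sequence could have been assigned to either copy, and the share of such reads is not known here.

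The next steps are those of chalcone isomerase, which closes the central ring, and flavanone 3-hydroxylase, which makes dihydroflavonols. CHI1 (GRMZM2G155329), at chr1:293118119-293119647, had 30.2 FPKM in the control and 37.0 after IAA, a log2 ratio of 0.29. F3H (GRMZM2G062396), at chr2:3561475-3563418, had 28.4 and 32.7, a log2 ratio of 0.20. Both ratios lay between the upper quartile (0.11) and the 95th percentile (0.42) of genes with a mean FPKM from 20 to 100. These genes act on consecutive intermediates and stood at nearly equal levels, CHI1 being 1.06 times F3H in the control and 1.13 times after IAA. Whether the levels of CHI1 and F3H differ from each other beyond the spread of replicates was not tested, since the values are pooled.

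Flavonoid 3'-hydroxylase sets the kind of pigment, since the added hydroxyl group leads to cyanidin in place of pelargonidin. PR1 is the maize gene for it, and GRMZM2G025832, at chr5:180084037-180086107, was taken under that name from the gene list; the RefSeq table has the identifier without a symbol. It stood at 3.44 FPKM in the control and at 4.85 after IAA. The log2 ratio of 0.49 was the second highest of the 9 genes and lay inside the range from the 5th to the 95th percentile (-0.80 to 0.71) of the 6468 genes with a mean FPKM from 1 to 5. F3H, which also acts on flavanones, was 8.25 times as abundant as PR1 in the control and 6.76 times after IAA.

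The late genes A1, A2, BZ1 and BZ2 are the ones that lead from dihydroflavonols to pigment, and they did not share a direction. A1 (GRMZM2G026930), the dihydroflavonol reductase at chr3:216386031-216387865, had 10.3 FPKM in the control and 11.1 after IAA. With a log2 ratio of 0.10 it lay within the quartiles (-0.19 to 0.13) of genes with a mean FPKM from 5 to 20. A2 (GRMZM2G345717), the anthocyanidin synthase at chr5:66136522-66139360, had 0.915 in the control and 0.562 after IAA. A2 was the lowest of the 9 genes in both treatments and its level in the control was above that of 42.1% of all genes.

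The A2 values correspond to a log2 ratio of -0.70, or 1.63-fold lower, at a mean of 0.739 FPKM that falls under the minimum of 1. Of the 1807 genes with a mean FPKM from 0.5 to 1, 14.8% were at least 1.5-fold lower, and the 5th percentile of their log2 ratios was -1.21. With 1 FPKM added to both values the log2 ratio of A2 was -0.29. The A2 ratio therefore lay between the 5th percentile and the lower quartile (-0.37) of genes at that level.

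BZ1 (GRMZM2G165390), at chr9:11779648-11781406, encodes the glucosyltransferase that stabilises the anthocyanidin. It had 18.3 FPKM in the control and 16.8 after IAA, a log2 ratio of -0.12, within the quartiles of genes of like level. BZ2 (GRMZM2G016241), at chr1:241430768-241432121, had 2.68 in the control and 4.49 after IAA. That is a log2 ratio of 0.74, or 1.68-fold higher, the largest of the 9 genes. It was the only one outside the range from the 5th to the 95th percentile of genes in its range of level, where the 95th percentile was 0.71. In that range, from 1 to 5 FPKM, 7.41% of genes were at least 1.5-fold higher. With 1 FPKM added to both values the log2 ratio of BZ2 was 0.58 and no longer reached 1.5-fold. BZ1 and BZ2, which act one after the other, came closer in level, from a BZ1 to BZ2 ratio of 6.84 in the control to 3.75 after IAA.

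**Figure D2:**
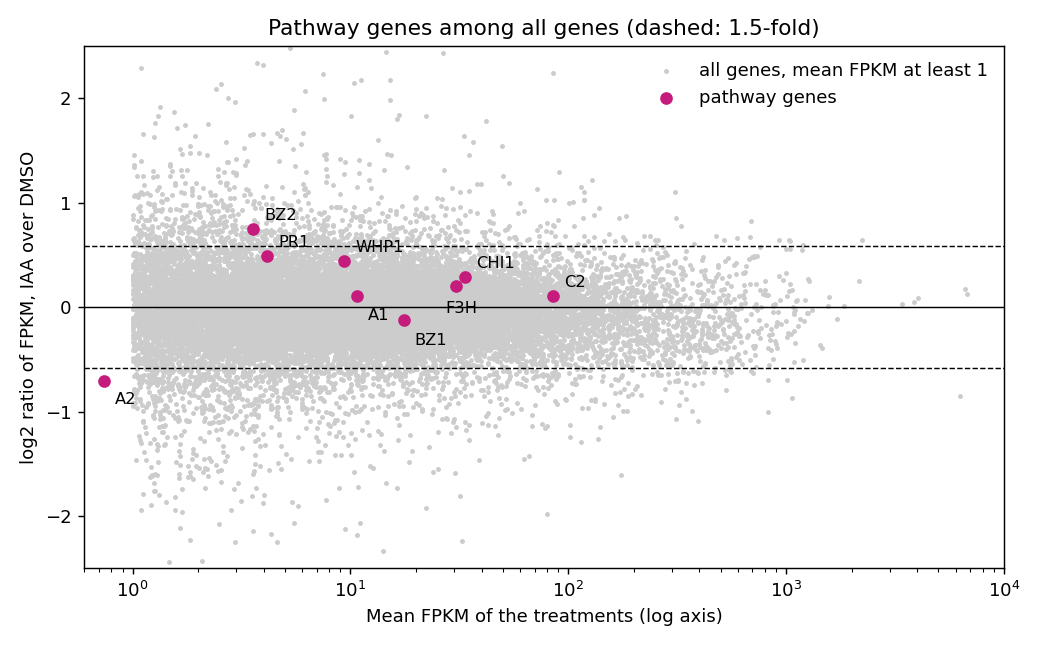
log2 ratio of FPKM (IAA over DMSO) against mean FPKM (log axis) for genes whose mean reached 1 FPKM (grey) and for the 9 pathway genes (magenta, named); A2 stands left of the grey points because its mean is 0.739. Dashed lines mark 1.5-fold in each direction, and genes beyond 2.5 on the vertical axis, or at 0 in 1 treatment, are not drawn (54 genes). BZ2 lies above the upper line and A2 under the lower one, and the other pathway genes lie between the lines.

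Measured against genes of like level, 3 of the 9 (C2, A1 and BZ1) lay within the quartiles, 5 (WHP1, CHI1, F3H, PR1 and A2) lay between the quartiles and the 5th or 95th percentile, and BZ2 lay outside. By definition, 90% of the genes in a range of level lie between its 5th and 95th percentile, and these counts were not tested. The percentiles give the scatter over genes and not the error of a gene. The genes that differed most in relative terms, BZ2, A2, PR1 and WHP1, included the 3 lowest in level.

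In order of level, the control values ran from C2 through CHI1, F3H, BZ1, A1, WHP1, PR1 and BZ2 to A2, and all 9 genes kept the same rank after IAA. C2 was 90.04 times as abundant as A2 in the control and 157 times after IAA. The step at A2 was the deepest along the pathway: A1 before it was 11.3 times and BZ1 after it 20.01 times as abundant in the control. After IAA these ratios were 19.7 and 29.9. All ratios to A2 rest on a gene with a mean of 0.739 FPKM, under the minimum of 1. A small difference in its value therefore moves them strongly.

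Absolute differences ranked the genes in another way. The summed FPKM of the 9 genes was 185 in the control and 207 after IAA, 12.0% higher, while the sum over all genes of the table after IAA was 95.6% of the control. C2, CHI1 and F3H held 76.4% of the pathway sum in the control and 76.5% after IAA, and 77.6% of the difference between the sums. CHI1 contributed 6.77 FPKM to the difference and C2 6.13. BZ2, the gene with the highest ratio, contributed 1.81 FPKM, or 8.14% of the difference. The differences of BZ1 and A2 were -1.48 and -0.353 FPKM.

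**Figure D3:**
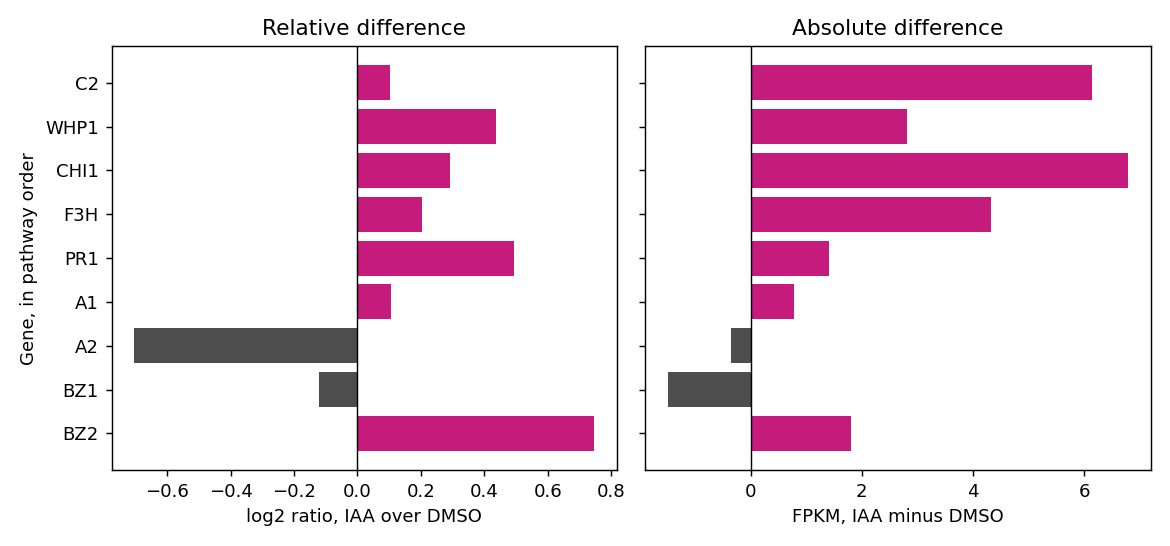
Left, log2 ratio of FPKM (IAA over DMSO) and right, difference of FPKM (IAA minus DMSO) for the 9 pathway genes in pathway order; bars start at 0, magenta is higher and grey lower after IAA. BZ2 has the longest bar in the left panel (0.74) and a short one in the right panel (1.81 FPKM). CHI1 and C2 have the longest bars in the right panel (6.77 and 6.13 FPKM).

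Further genes were sought under a list of 46 symbols linked to the pathway, of which the RefSeq table paired some with identifiers of 11 further genes. Of these, 9 reached a mean of 1 FPKM, with 5 higher and 4 lower after IAA. The 4 lower ones were pl1, a pair of adjacent identifiers listed as pac1, and the uncertain gene listed as chs1 and minE. None of the further genes of that level differed by 1.5-fold in either direction, beside 4.13% higher and 5.22% lower over all genes. The median log2 ratio of the further genes that reached 1 FPKM was 0.07, and -0.07 over those whose mean reached 5. The median of 0.07 is the value of mrp4. Both mrp4 and dfr1 are also listed under other names, so their part in the pathway is uncertain as well. At the entrance to the phenylpropanoids, the gene listed as pal1 and pal3 (GRMZM2G074604), for phenylalanine ammonia-lyase, had 315 FPKM in the control and 333 after IAA. It was 1 gene of the family only, and it stood well above C2.

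Among the regulators, r1 (GRMZM5G822829), the bHLH activator, had 2.54 FPKM in the control and 3.06 after IAA, a log2 ratio of 0.27. The MYB activator pl1 (GRMZM2G701063) had 1.79 and 1.75, a log2 ratio of -0.04. Its kernel counterpart c1 (GRMZM2G005066) had 0.0230 and 0.0397, and the MYB gene p1 (GRMZM2G084799), which acts on phlobaphenes and C-glycosyl flavones, had 0.0499 and 0.0260. The c1 and p1 transcripts were thus close to 0 in both treatments, and no ratio is given for them. For pac1, the WD40 partner of the MYB and bHLH proteins, the table lists a pair of adjacent identifiers. GRMZM2G058292, which also carries the name WD40.1, had 8.41 FPKM in the control and 7.64 after IAA, and GRMZM2G058432 had 66.4 and 51.8. Symbols such as b1, in1 and a3 had no pairing with an identifier and were not analysed here.

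The 4 further genes on the list of enzymes and transporters all differed by less than 1.5-fold. UGT708A6 (GRMZM2G162783), a C-glucosyltransferase of the flavone branch, had 1.09 FPKM in the control and 1.53 after IAA, a log2 ratio of 0.48. The gene listed as dfr1 (GRMZM2G004683), also listed under a male-sterile name, had 2.17 and 2.49. The transporter gene mrp4 (GRMZM5G820122), also known as lpa1, had 46.8 and 49.2. GRMZM6G007923 is listed both as chs1 and as minE, so its part in the pathway is uncertain, and it had 23.5 and 22.3.

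**Figure D4:**
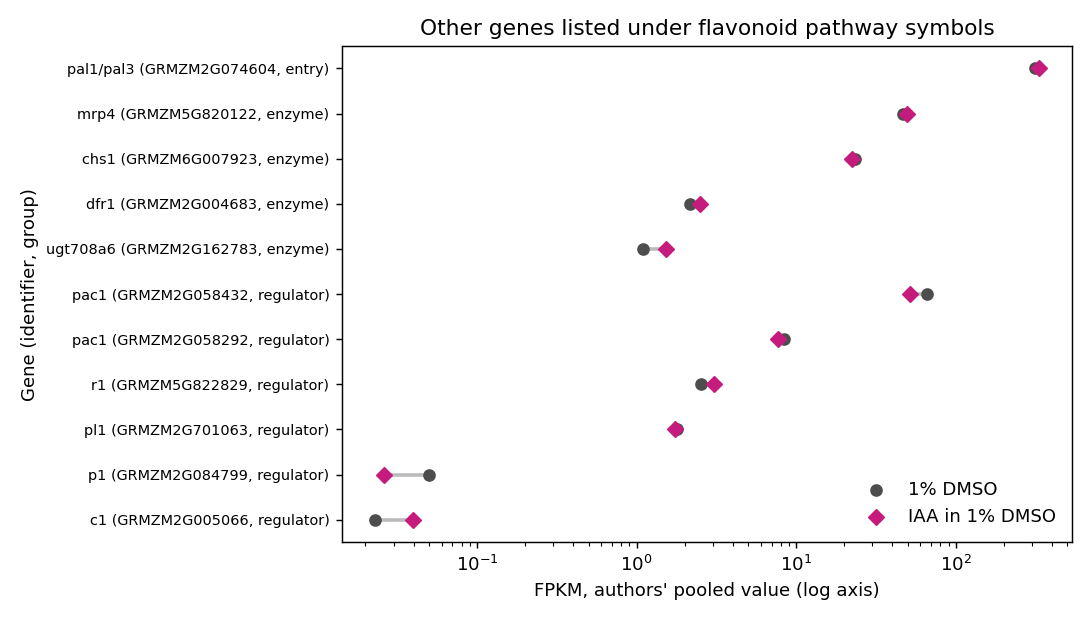
FPKM (log axis, the authors' pooled value per treatment) of the 11 further genes found under flavonoid pathway symbols, in 1% DMSO (grey circles) and in IAA with 1% DMSO (magenta diamonds), grouped as entry step, enzymes and transporters, and regulators. The points of most genes nearly coincide; c1 and p1 lie under 0.1 FPKM in both treatments.

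None of the 9 loci overlapped that of another gene, and they lay on 6 chromosomes. Within 10 kb, 3 of them had a neighbour. The gene 1043 bases beyond BZ1, GRMZM2G165433 (listed as stk1), had 0.0913 FPKM in the control and 0.110 after IAA, so it was nearly silent beside an expressed BZ1. Beside CHI1, GRMZM2G155525 and GRMZM2G155317 had log2 ratios of 0.10 and -0.02. Beside F3H, GRMZM2G062420 and GRMZM2G365188 had 0.04 and -0.38.

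Auxin response genes differed far more in the same libraries. The genes listed as saur3 (GRMZM2G156470), GH3 (GRMZM2G378106) and IAA12 (GRMZM2G128421), from families of early auxin response genes, had log2 ratios of 3.01, 3.35 and 1.45. Leaf markers were abundant: ssu1 (GRMZM2G098520), the Rubisco small subunit, stood at 1559 FPKM in the control and 1567 with IAA. The C4 genes pep1 (GRMZM2G083841), pdk1 (GRMZM2G306345), me3 and mdh6 ranged from 422 to 1741 FPKM in the control and were 1.27 to 1.57-fold higher after IAA, and the part of this in the pathway values was not tested. Further identifiers listed as pep1 or pdk1 had 2.26 to 12.7 FPKM in the control. Of the 5 endosperm genes found, fl2 and o2 were listed at 0 in both treatments, gz27 was under 0.1 FPKM, sh2 was at 0.873 and 0.781, and bt2 at 17.9 and 16.8. The root hair gene rth3 had 11.1 and 8.70.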

How the data were processed

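Reads were quality trimmed by the authors (trimmomatic) and aligned to the B73v3 genome; the submitters' processing notes name TopHat2 2.1.1 and Cuffdiff 2.2.1. What the authors deposited is a single Cuffdiff FPKM per gene for each treatment, pooled over 3 replicates. The deposited table also holds their fold changes, test statistics, p-values and q-values, which were not used. The gene models, Cuffdiff options and depth per library are not given in the sources used here. The libraries were stranded, but whether counting used strand is not stated.

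Ratios were taken as log2(IAA/DMSO) of these values with no pseudocount. A 1.5-fold limit with a mean FPKM of at least 1 stands in place of a test. Symbols came from the RefSeq table of the Zm-B73-REFERENCE-NAM-5.0 assembly, which holds 18995 of the identifiers and all 9 members; no coordinates were taken from it. Loci are given 1-based, after adding 1 to each start. The members and lists were chosen with earlier results of these data known. Named genes were the 9 members, listed regulators, listed genes past 1.5-fold and nearest neighbours within 10 kb; other listed genes were named after their values were seen, and the ranges of level were also set then. Promoter motifs had been planned and were not analysed here. The counting of ratios was tested on simulated data. Computations ran in Python 3.11.15 with pandas 2.3.3 and numpy 2.4.6, and plots in matplotlib 3.10.9.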

Additional observations from a re-analysis of the deposited data

How the results depend on the processing

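No paired analysis was possible because only values pooled over replicates were used, and replicates could not be left out for the same reason. Adding 0.1 or 1 FPKM to both values cannot change the direction of a gene. With the median of all genes set to 0, or with both treatments scaled to the same total, all 9 genes kept their direction. Each of these settings shifts every log2 ratio by the same amount, so only a ratio close to 0 could have changed sign. The nearest to 0 was BZ1, at -0.06 with the totals scaled. With that median set to 0 the median log2 ratio of the 9 genes was 0.24. BZ2 was the 1 gene at least 1.5-fold higher. With a fold limit of 2, a mean FPKM of at least 5 or 1 FPKM added, 0 genes were. The limit of 5 left BZ2 out, since its mean was 3.58 FPKM. Of genes at least 1.5-fold lower there were 0, and 1 (A2) when any mean FPKM above 0 was admitted, where 12.1% of all genes were higher and 11.8% lower by that limit. With the fold limit of 2 these shares were 0.972% and 1.44%. With a mean FPKM of at least 5 they were 2.81% and 3.72%, and with 1 FPKM added 2.42% and 3.49%. With 1 FPKM added the C2 share of the C2 and WHP1 sum was 90.3% in the control and 88.4% after IAA. The median of the further genes found under pathway symbols was -0.0748 over those that reached a mean of 5 FPKM. That limit left out r1, UGT708A6 and dfr1, which were higher after IAA, and pl1, which was lower. The median is then the value of the uncertain gene listed as chs1 and minE. Depth is unknown, so how far it limits A2 and the other low genes was not measured.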

Other observations

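Genes around the pathway loci were looked at after the values had been seen. Within 100 kb of the 9 loci lay 50 genes, 31 of them with a mean FPKM of at least 1. Of all genes with such a mean, 4.13% were at least 1.5-fold higher after IAA and 5.22% at least 1.5-fold lower. Of these 31, none was at least 1.5-fold higher and 1 was at least 1.5-fold lower, and the counts were not tested. That gene, GRMZM2G478553 (listed as znf), lies at chr9:11736162-11737986, 41661 bases from BZ1, and had 6.87 FPKM in the control and 2.44 after IAA, a log2 ratio of -1.49. BZ1 itself had a log2 ratio of -0.12.

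A1 and sh2 (GRMZM2G429899, the large subunit of ADP-glucose pyrophosphorylase of the endosperm) are the classical linked pair of chromosome 3. Here the first base of the sh2 locus lies 108116 bases past the last base of the A1 locus. Between them lay 2 genes of the table. GRMZM2G160032, listed as x1, had 28.2 FPKM in the control and 34.6 after IAA, a log2 ratio of 0.30, and GRMZM2G114048 had 0.120 and 0.0576. In this stretch A1 and x1 were expressed in the shoot, and sh2, at 0.873 and 0.781 FPKM, was low.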
